A study of Mus musculus with 75 samples.

Results

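LepRb nuclei were compared with the other nuclei of the mouse hypothalamus 2 h after leptin, by open chromatin (ATAC-seq) and by the histone mark H3K27ac (ChIP-seq). The comparison used the 8 libraries labelled Lep2, 2 GFP-positive and 2 GFP-negative in each assay, of 75 samples in the series. Regions entered it when their mean normalized signal over the 16 libraries of their assay was 10 or more, which held for 31358 of 48634 ATAC regions and 98529 of 126368 H3K27ac regions.

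All mice were LepRcre/+; SUN1-sfGFP/+, with Cre expressed from 1 leptin receptor allele and a nuclear envelope GFP tag that Cre switches on. GFP-positive nuclei are therefore those of cells in which the Cre driver had been active at any time, and GFP-negative nuclei are all the others of the same tissue. Lep2 mice were fasted for 36 h and received leptin at 5 mg/kg once, at 34 h. The other treatments were free feeding (Fed), the 36 h fast with saline at 12, 24 and 34 h (Fast), and the fast with leptin at those 3 times (Lep24, labelled 24 hours). Titles carry the codes FedSSS for Fed, FasSSS for Fast, FasSSL for Lep2 and FasLLL for Lep24. Fed and Lep2 thus share the letter S of the saline-treated Fast mice. Mice were at least 2 months old and ate chow. Hypothalami were pooled before sorting, and 300000 to 540000 nuclei went into a ChIP. Nothing in the labels says that the 2 replicates are separate pools. The p-values thus measure the spread between these libraries alone, and that spread may be technical.

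Leptin is secreted by fat cells and signals the state of energy stores. Its long receptor, LepRb, acts through JAK2 and STAT3 in groups of hypothalamic neurons that control feeding and energy use, and fasting lowers circulating leptin. ATAC-seq marks DNA that a transposase can reach, mostly promoters and enhancers, and H3K27ac marks those that are active. In pooled nuclei, fewer nuclei with a mark and less of the mark per nucleus cannot be told apart. Regions are given by position on mouse build mm9, since the tables name no gene and the gene tables at hand are of GRCm38. For the same reason the labelled cell type was not checked against marker genes here.

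Replicate 1 of H3K27ac was weakly enriched in both Lep2 sorts. The mean signal per base of the densest regions over that of the sparsest was 1.78 (log2) in GFP-positive replicate 1 and 1.83 in GFP-negative replicate 1, against 2.61 in GFP-positive replicate 2 and 2.33 in GFP-negative replicate 2. Both replicate 1 libraries belong to a set of 6 such libraries, with the replicate 1 libraries of Fed and Lep24. In ATAC, GFP-positive replicate 2 stood apart by coarse values: its low values moved in steps of about 1.8 units of signal, against 0.9 in GFP-positive replicate 1, 0.5 in GFP-negative replicate 1 and 1.1 in GFP-negative replicate 2. Read depth is unknown, because the tables hold normalized signal. Pearson's r of log2 signal between the 2 replicates was 0.856 for GFP-positive and 0.915 for GFP-negative ATAC, and 0.87 for GFP-positive and 0.894 for GFP-negative H3K27ac.

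ATAC signal differed between the sorts at 114 of 31358 regions (0.364%). Of these, 47 (0.15%) were higher and 67 (0.214%) lower in GFP-positive nuclei. Differences are of log2(signal + 1), tested with limma and called at a Benjamini-Hochberg adjusted p under 0.05. This scale understates the change of low regions. At the 47 higher regions the median signal was 30.9 and 38.0 in GFP-positive nuclei, against 9.9 and 10.9 in GFP-negative nuclei. At the 67 lower regions it was 6.1 and 4.6 in GFP-positive nuclei, against 24.2 and 26.5 in GFP-negative nuclei. The median log2 difference was 1.71 for the higher regions (1.19 to 2.94) and -2.15 for the lower ones, against 0.01 over all regions tested. All 47 higher and 66 of 67 lower regions differed by at least 2-fold, as did 1560 of all 31358 tested. A call at this spread favours large differences. In each of the 114 the GFP-positive libraries lay wholly on one side of the GFP-negative libraries. Over all regions tested, such separation was seen upwards in 22.1% and downwards in 19.4%. The calls rest on these same libraries and so favour such separation.

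The number of calls turned on single libraries. Leaving out GFP-negative replicate 2 left 0 regions called by limma (2067 at an unadjusted p under 0.05, smallest adjusted p 0.199). Leaving out GFP-negative replicate 1 left 9 calls, GFP-positive replicate 2 left 5, and GFP-positive replicate 1 gave 308. Of these, 5 of 9, 4 of 5 and 70 of 308 were among the 114. Each of these fits leaves a sort of Lep2 with 1 library, which is assumed to vary like the other groups.

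The called regions, the lower ones above all, were short and of modest signal. The median length was 919 bp for the higher and 639 bp for the lower regions, against 1039 bp for all tested. The median signal over the 16 libraries was 19.8 for the higher and 15.8 for the lower regions, against 20.7 for all tested. Higher regions lay on 16 chromosomes and lower regions on 18. Chromosome X held 547 tested regions and 0 calls, where the share called over all regions was 0.364%. Lower regions lay within 200 kb of each other in 2 places, a pair in chr14:114313000-114334861 and a pair in chr8:29510625-29538742, and no higher regions did.

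The higher region with the smallest p was chr2:157521665-157522613. Its signal was 45.4 and 53.8 in GFP-positive nuclei, against 13.7 and 12.1 in GFP-negative nuclei, a log2 difference of 1.86 ± 0.30 (SE, limma adjusted p 0.00802). The sorts stood well apart, and the same region was higher in GFP-positive nuclei in Fed, Fast and Lep24 mice, by 1.57, 1.17 and 1.15. The next was chr4:134142892-134144769, with 56.5 and 34.5 in GFP-positive nuclei, against 9.9 and 13.2 in GFP-negative nuclei (1.86 ± 0.33, limma adjusted p 0.0125). Here the GFP-positive libraries differed from each other more than the GFP-negative libraries did, but did not meet them.

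Chromosome 10 held 3 of the 12 higher regions named for the smallest p. The region chr10:82257653-82258649 had 49.7 and 48.6 in GFP-positive nuclei, against 13.7 and 16.6 in GFP-negative nuclei (1.64 ± 0.30, limma adjusted p 0.0186). The region chr10:82644028-82645967 had 53.1 and 69.7 in GFP-positive nuclei, against 25.1 and 21.0 in GFP-negative nuclei (1.37 ± 0.27). At chr10:79537321-79538525 the values were 37.7 and 52.1 in GFP-positive nuclei, against 9.9 and 10.9 in GFP-negative nuclei (1.99 ± 0.39). All 3 had the same direction in the other treatments.

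The most strongly covered of the named higher regions was chr7:106733622-106736529, with 78.8 and 73.2 in GFP-positive nuclei, against 29.3 and 31.9 in GFP-negative nuclei (1.29 ± 0.25, limma adjusted p 0.0201). A weaker one, chr9:15186407-15186995, had 20.6 and 23.9 in GFP-positive nuclei, against 3.6 and 5.0 in GFP-negative nuclei (2.14 ± 0.41). At chr12:105500807-105502030 the signal was 33.4 and 36.3 in GFP-positive nuclei, against 7.5 and 8.6 in GFP-negative nuclei (1.99 ± 0.39). In each of these the replicates of a sort lay close together and the sorts far apart. The largest log2 difference, 2.94 ± 0.60 at chr13:37653830-37654540, rests on a GFP-negative library listed at 0: the signal was 21.5 and 18.7 in GFP-positive nuclei, against 6.5 and 0 in GFP-negative nuclei. Its limma adjusted p was 0.0298, 0.0683 with a pseudocount of 0.1, and ran from 0.00071 to 0.609 over the alternatives tried.

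Among the lower regions the smallest p was at chr15:88680596-88681406. Its signal was 6.1 and 0 in GFP-positive nuclei, against 25.1 and 49.8 in GFP-negative nuclei, a log2 difference of -3.77 ± 0.58 (limma adjusted p 0.00802). It was lower in GFP-positive nuclei in Fed, Fast and Lep24 mice as well, by -2.15, -1.38 and -1.20 on the log2 scale. At chr17:25654927-25655652 the signal was 3.6 and 2.8 in GFP-positive nuclei, against 21.8 and 34.0 in GFP-negative nuclei (-2.76 ± 0.44, limma adjusted p 0.00802). At chr9:14193269-14194032 it was 3.6 and 2.8 in GFP-positive nuclei, against 20.8 and 23.2 in GFP-negative nuclei (-2.46 ± 0.39). Both were nearly without signal in GFP-positive nuclei.

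Signal at chr8:37218435-37219135 was 5.3 and 6.3 in GFP-positive nuclei, against 31.7 and 39.3 in GFP-negative nuclei (-2.42 ± 0.40, limma adjusted p 0.00802). The region chr1:90428194-90428762 had 4.4 and 4.6 in GFP-positive nuclei, against 21.8 and 29.7 in GFP-negative nuclei (-2.27 ± 0.38). The region chr14:114334257-114334861, in the chromosome 14 pair, had 7.8 and 4.6 in GFP-positive nuclei, against 26.5 and 38.3 in GFP-negative nuclei (-2.23 ± 0.39). In these 3 regions no library was listed at 0. Over the 67 lower regions, GFP-positive replicate 2, the library with coarse values, was listed at 0 in 15 and GFP-positive replicate 1 in 1, while over all 31358 regions they were listed at 0 in 53 and 2. The part of the coarse steps in the lower calls was not tested.

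**Figure D1:**
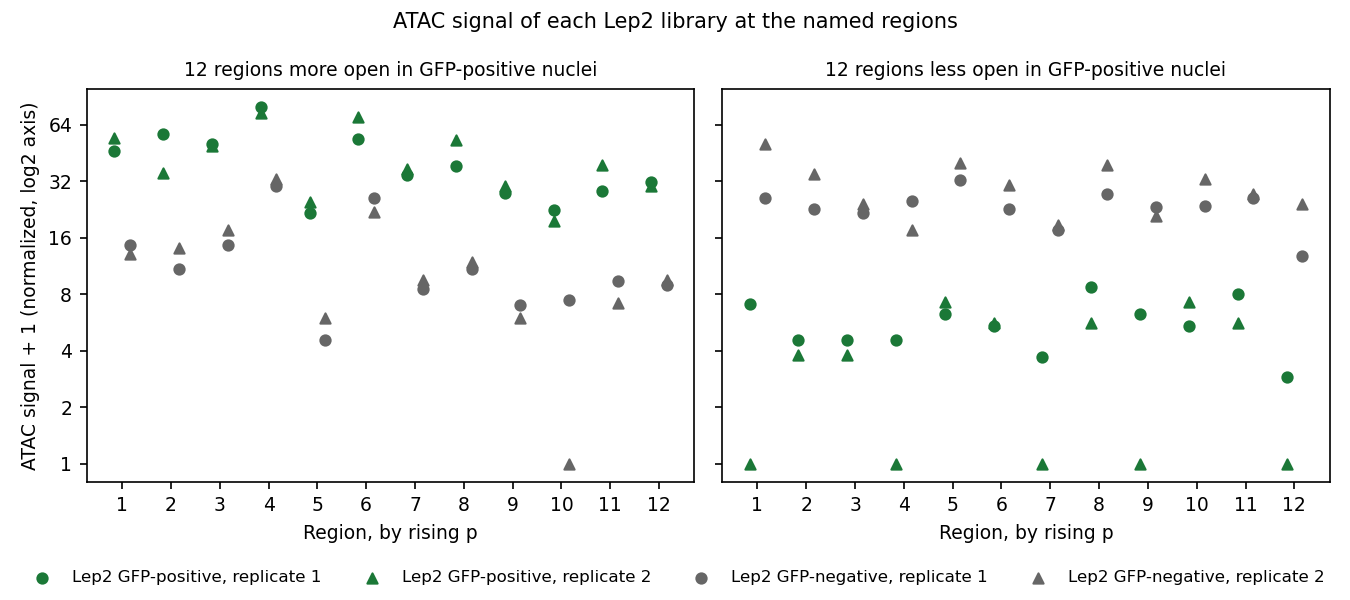
ATAC signal + 1 (normalized, log2 axis) of each Lep2 library at the 12 higher (left) and 12 lower (right) called regions with the smallest p, ordered by p. Circles are replicate 1 and triangles replicate 2; GFP-positive and GFP-negative libraries do not overlap in any of the 24 regions, and several GFP-positive replicate 2 values of the lower regions sit at a signal of 0.

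The same 114 regions were then read in the other treatments, and most leaned the same way. The libraries of those treatments took no part in the contrast that chose the regions, but entered its estimate of spread. Over the 47 higher regions the median log2 difference was 0.86 in Fed, 0.85 in Fast and 0.95 in Lep24 mice, and 45, 45 and 46 of them had the Lep2 direction. Over the 67 lower regions it was -1.27, -1.07 and -0.99, and 67, 65 and 67 had the Lep2 direction. The median over all 31358 regions lay between 0.0 and 0.01 in those treatments. In all 6 pairs of same-numbered libraries of the other treatments, 36 of 47 higher and 51 of 67 lower regions kept the direction.

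A test of the sort over Fed, Fast and Lep24 called 1165 of the 31358 regions (3.72%) with limma. Of the 47 higher regions it called 34, and of the 67 lower ones 47, all in the Lep2 direction. Both tests use the same estimate of spread for a region, so regions called in Lep2 pass this one more easily. The difference in Lep2 was larger in size than that over the other treatments in 47 of 47 higher and 65 of 67 lower regions, but the regions had been chosen for a large difference in Lep2. Without Lep2 GFP-positive replicate 1, which gave 308 calls, the medians in the other treatments were smaller: 0.45 in Fed, 0.71 in Fast and 0.71 in Lep24 mice for higher calls, and -0.37, -0.34 and -0.38 for lower calls.

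**Figure D2:**
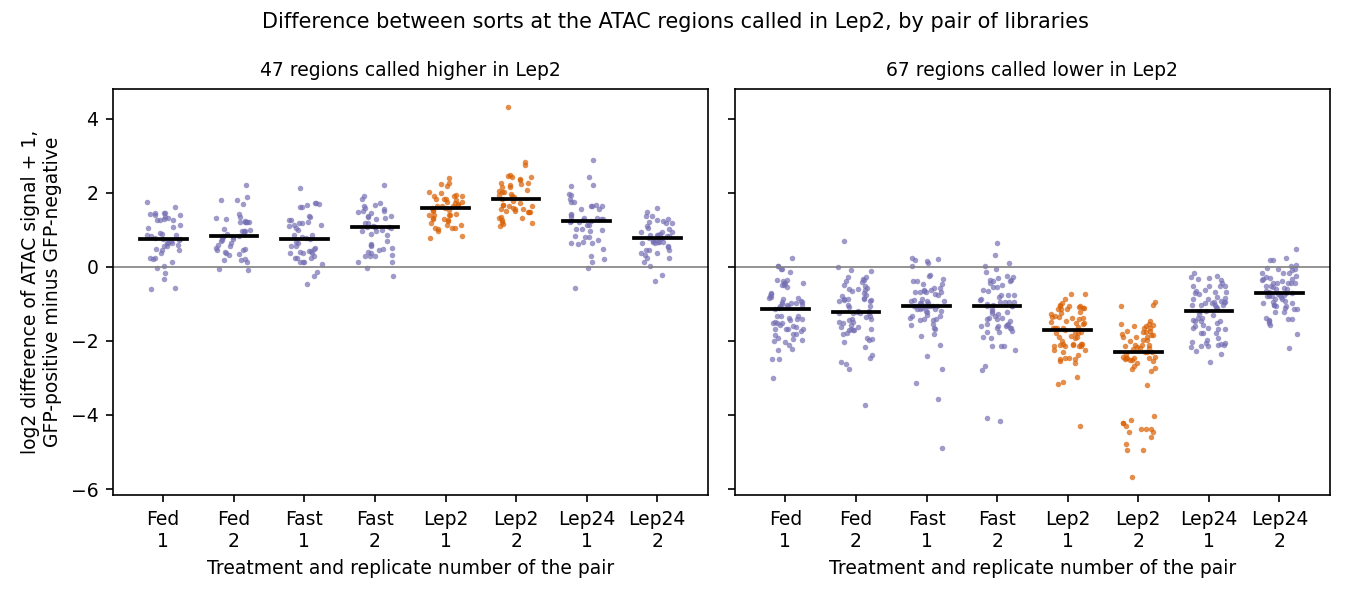
Log2 difference of ATAC signal + 1, GFP-positive minus GFP-negative, at the 47 higher and 67 lower regions called in Lep2, for each same-numbered pair of libraries in a treatment. Each point is a region and each bar a median (Lep2 in orange); the Lep2 medians, 1.58 and 1.83 for higher and -1.71 and -2.30 for lower regions, were fixed by the choice of regions, and the bars of the other treatments lie on the same side of 0.

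Whether a difference between the sorts departed in Lep2 from the mean of Fed, Fast and Lep24 was tested directly. No ATAC region (0%) and no H3K27ac region (0%) passed in limma. The unadjusted p was under 0.05 at 960 ATAC regions (3.06%) and 1828 H3K27ac regions (1.86%). Against Fast alone, 0 regions passed in either assay, with 1126 and 2106 at an unadjusted p under 0.05. The half-width of the unadjusted 95% interval of this contrast had a median of 0.83 in ATAC and 0.94 in H3K27ac on the log2 scale. Smaller departures could not be resolved at a typical region, and larger ones could still fail after adjustment over all regions. Without Lep2 GFP-positive replicate 1, 63 ATAC regions passed against the mean of the other treatments and 27 against Fast, again with the spread of the lone library taken from the other groups.

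The regions with the smallest p in that contrast are given as a description only, since none passed after adjustment. Among so many regions, some reach a small p without any departure. ATAC region chr13:51772400-51773474, one of the 12 named higher regions, had 26.6 and 29.2 in GFP-positive nuclei, against 6.0 and 5.0 in GFP-negative nuclei. In Fed mice it had 14.3 and 12.5 in GFP-positive nuclei, against 16.3 and 13.1 in GFP-negative nuclei. The differences in Fed, Fast and Lep24 mice were -0.12, 0.68 and -0.22, and the departure was 2.04 ± 0.50 (limma unadjusted p 0.000322, adjusted p 0.999). Relative to Fed, its signal was higher in GFP-positive and lower in GFP-negative nuclei. In Fast mice it had 13.2 and 24.1 in GFP-positive nuclei, against 14.7 and 7.8 in GFP-negative nuclei. The Fast replicates thus parted, with differences of -0.14 and 1.51, the second in the Lep2 direction.

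ATAC region chr14:45669485-45670073 had 4.4 and 0 in GFP-positive nuclei, against 16.1 and 17.7 in GFP-negative nuclei, with a departure of -2.76 ± 0.64 (limma unadjusted p 0.000188). Its differences in Fed, Fast and Lep24 mice were -0.06, -0.21 and -0.27, means of replicates that differed from each other: -1.07 and 0.65 in Fast and -0.70 and 0.17 in Lep24. H3K27ac region chr11:90123714-90125198 had 16 and 16.6 in GFP-positive nuclei, against 6.1 and 4.7 in GFP-negative nuclei, while in Fed, Fast and Lep24 mice it was lower in GFP-positive nuclei, by -0.51, -1.03 and -0.66 on the log2 scale. Its departure was 2.18 ± 0.45 (limma unadjusted p 0.000304). Both replicates of each sort lay close together there, including the weakly enriched pair.

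H3K27ac gave no call between the sorts in Lep2 when only the 8 group means were fitted. In that fit, which has no term for the replicate number or the library set, 0 of 98529 regions (0%) passed in limma, with 6938 (7.04%) at an unadjusted p under 0.05 and a smallest adjusted p of 0.613. The replicates were therefore also read apart. Within replicate 1, 3198 regions (3.25%) were at least 2-fold higher and 3169 (3.22%) at least 2-fold lower in GFP-positive nuclei. Within replicate 2, 3345 (3.39%) were higher and 6429 (6.52%) lower. Both replicates passed 2-fold upwards in 308 regions (0.313%), downwards in 343 (0.348%) and in opposite directions in 220. With 1 library a sort in each replicate these counts carry no test.

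The agreement of the replicates grew with the signal. Over all regions the r of the replicate 1 and replicate 2 differences was 0.21, and 59.2% had the same sign. In ATAC the figures were 0.37 and 60.8%. Among H3K27ac regions of mean signal 10 to 20 the r was 0.11, at 50 to 100 it was 0.32 and at 200 or more it was 0.56, with 53.4%, 60.2% and 71.1% of the same sign. These are correlations across regions of the same 4 libraries, given as a description.

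Of regions with mean signal 50 or more, replicate 2 was at least 2-fold higher in GFP-positive nuclei in 393 and at least 2-fold lower in 2296. Replicate 1 had the same direction in 302 of the 393 (76.8%) and 1944 of the 2296 (84.7%), but passed 2-fold in 23 and 40. The median log2 difference of the 2296 was -1.36 in replicate 2 and -0.32 in replicate 1. In Fast mice, whose 4 H3K27ac libraries had an enrichment of 2.46 to 2.56, the same 2296 regions had medians of -1.40 and -1.19. Since the regions were chosen for passing 2-fold in replicate 2, the choice itself favours a larger median there. Replicate 1 is also the weakly enriched one, and the part of that in its smaller differences was not tested.

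**Figure D3:**
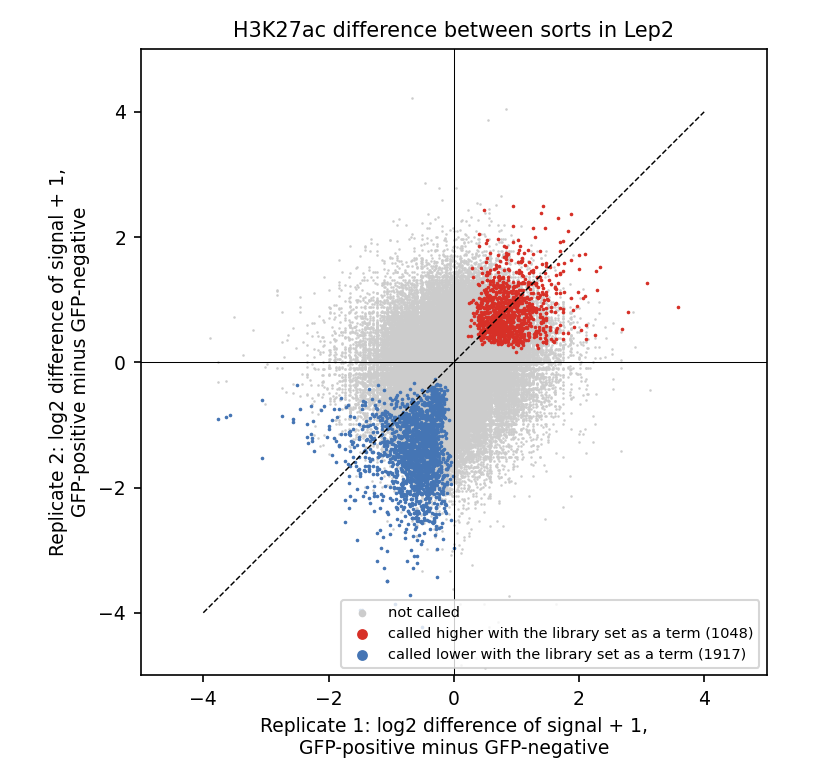
Log2 difference of H3K27ac signal + 1, GFP-positive minus GFP-negative, in replicate 1 (x) and replicate 2 (y) of Lep2, 1 point per region (98529). Coloured points are the 1048 higher and 1917 lower regions called with the library set as a term. The dashed line marks equal differences; the lower regions had medians of -0.54 in replicate 1 and -1.37 in replicate 2.

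When the set of 6 weakly enriched libraries was given a term in the limma fit, 2965 regions (3.01%) were called between the Lep2 sorts, 1048 (1.06%) higher and 1917 (1.95%) lower. All 1048 higher regions and 1916 of the 1917 lower ones had the same sign in both replicates, against 59.2% of all regions tested. The call uses these same replicates and so favours a shared sign. The higher regions had medians of 0.84 in replicate 1 and 0.74 in replicate 2, and 26.5% of them differed by at least 2-fold. The lower regions had medians of -0.54 and -1.37, and 50.8% differed by at least 2-fold. Lower regions were long: 40.1% measured 10 kb or more, against 11.0% of the higher regions and 9.43% of all tested. Higher regions met open chromatin more often: 73.9% overlapped a tested ATAC region, against 28.2% of the lower regions and 23.8% of all tested. The median signal was 133 for the higher and 120 for the lower regions, against 39.6 for all tested. The median length was 4063 bp and 7819 bp, against 2690 bp. The part of signal and length in these shares was not tested.

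This count turned on single libraries too. It was 33 when GFP-positive replicate 2 was left out, 850 when GFP-negative replicate 2 was, 1713 when GFP-negative replicate 1 was and 5158 when GFP-positive replicate 1 was. The 850 without GFP-negative replicate 2 were 771 higher and 79 lower, the reverse of the balance with all libraries. Of these calls, 25 of 33, 496 of 850, 1311 of 1713 and 2293 of 5158 were among the 2965. A fit of only the 10 other libraries leaves each sort of Fed, Lep2 and Lep24 with 1 library. Its spread comes from the Fast libraries alone. Its number of calls between the sorts is therefore listed only among the alternatives and is not read as a result.

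Some called H3K27ac regions were adjoining pieces of a domain. Of the 1917 lower regions 261 lay in 116 such runs, and of the 1048 higher regions 19 lay in 9. Of all 126368 regions deposited, 65622 directly adjoined the next. The longest lower run, 7 pieces in chr8:87235240-87325075, summed to a signal of 1976.1 and 784.5 in GFP-positive nuclei, against 2742.5 and 2899.5 in GFP-negative nuclei. A run of 4 pieces in chr2:44901034-44973196 summed to 1209.3 and 362.0 in GFP-positive nuclei, against 1874.9 and 2241.6 in GFP-negative nuclei. In both, GFP-positive replicate 2 was the lowest of the 4 libraries by far. The longest higher run, 3 pieces in chr5:120116865-120138992, summed to 766.5 and 892.8 in GFP-positive nuclei, against 513.6 and 372.0 in GFP-negative nuclei.

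The regions named for H3K27ac were those with the largest difference shared by both replicates. The most strongly marked was chr4:101388996-101390831, with 72.2 and 180.2 in GFP-positive nuclei, against 22.1 and 35.8 in GFP-negative nuclei. Its log2 difference was 1.66 in replicate 1 and 2.30 in replicate 2 (1.98 ± 0.24 and adjusted p 0.000452 in limma with the set term). It was also higher in Fed, Fast and Lep24 mice, by 1.54, 2.04 and 1.88, and no tested ATAC region overlapped it. At chr19:26932381-26934513 the signal was 80.2 and 119.8 in GFP-positive nuclei, against 27.1 and 41.0 in GFP-negative nuclei, nearly the same difference in both replicates (1.53 and 1.52).

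The piece chr5:120133742-120135208 of the higher run on chromosome 5 had 24.6 and 43.9 in GFP-positive nuclei, against 4.1 and 14.6 in GFP-negative nuclei. At chr16:21576174-21576937 the signal was 30.0 and 37.8 in GFP-positive nuclei, against 8.2 and 9.1 in GFP-negative nuclei. An ATAC region overlapping it had 11.2 and 15.1 in GFP-positive nuclei, against 9.4 and 2.5 in GFP-negative nuclei, a difference that did not pass (limma adjusted p 0.281). Of the 12 named higher H3K27ac regions, 11 passed in limma with the set term; the other, chr3:80958398-80959471, had an adjusted p of 0.0663. That fit used the values by which the regions were chosen.

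All 12 named lower H3K27ac regions passed with the set term, again in a fit that used the values by which they were chosen. The region chr3:102542747-102544304 had 9.4 and 7.4 in GFP-positive nuclei, against 33.5 and 48.2 in GFP-negative nuclei (-2.14 ± 0.35, limma adjusted p 0.00473). The region chr13:63670922-63672701 had 9.4 and 9.5 in GFP-positive nuclei, against 33.5 and 47.2 in GFP-negative nuclei (-1.96 ± 0.36). The region chr10:56681278-56683978 had 14.3 and 12.6 in GFP-positive nuclei, against 45.4 and 61.5 in GFP-negative nuclei (-1.90 ± 0.32). In these 3 the GFP-positive libraries were nearly equal in the weakly and the well enriched replicate. At chr10:40232387-40235418, with more of the mark, the signal was 22.9 and 29.8 in GFP-positive nuclei, against 66.4 and 105.0 in GFP-negative nuclei.

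Regions named from replicate 2 alone show how far the replicates could part. At chr4:58008492-58010957 the signal was 53.2 in GFP-positive replicate 2, against 8.0 in GFP-negative replicate 2, while replicate 1 had 28.2 in GFP-positive nuclei, against 32.2 in GFP-negative nuclei. The log2 difference was 2.59 in replicate 2 and -0.19 in replicate 1. At chr1:174273925-174279633 replicate 2 had 27 in GFP-positive nuclei, against 271.3 in GFP-negative nuclei, and replicate 1 had 86.3 in GFP-positive nuclei, against 136.0 in GFP-negative nuclei. Here the direction was shared, with -3.28 in replicate 2 and -0.65 in replicate 1, and Fast mice had a difference of -3.02.

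H3K27ac was then read at the ATAC calls, which the mark had not chosen. All 47 higher ATAC regions (100%) and 43 of the 67 lower ones (64.2%) overlapped an H3K27ac region by at least 1 bp, against 30075 of the 31358 tested (95.9%). Of the 1283 ATAC regions outside every H3K27ac region, 24 (1.87%) were called lower, against 43 of 30075 (0.143%) of those inside one. The 24 had a median difference of -2.25, and the 43 one of -2.0.

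The 47 higher ATAC regions overlapped 50 tested H3K27ac regions. There the median H3K27ac difference was 0.14 in replicate 1 and 0.47 in replicate 2, and 34 and 43 of the 50 were higher in GFP-positive nuclei. At the 45 tested H3K27ac regions that overlapped lower ATAC regions it was -0.22 and -1.0, and 33 and 42 of the 45 were lower. Over the 23409 H3K27ac regions that overlapped any tested ATAC region the medians were 0.11 and 0.14, with 62.1% and 65.6% higher. The lower side was 2-fold in 22 of 45 regions in replicate 2 and in 0 in replicate 1. Both replicates shared the ATAC direction at 30 of the 50 and 32 of the 45 regions.

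The medians in the other treatments had the same sign. In Fast mice the H3K27ac medians were 0.45 and 0.54 at the higher ATAC regions and -0.87 and -0.82 at the lower ones, in replicates 1 and 2. With the library set as a term, 7 of the 50 and 14 of the 45 regions were called in limma in the ATAC direction and 0 in the opposite one, while 1314 of the 23409 regions that overlapped any tested ATAC region (5.61%) were called in either direction.

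**Figure D4:**
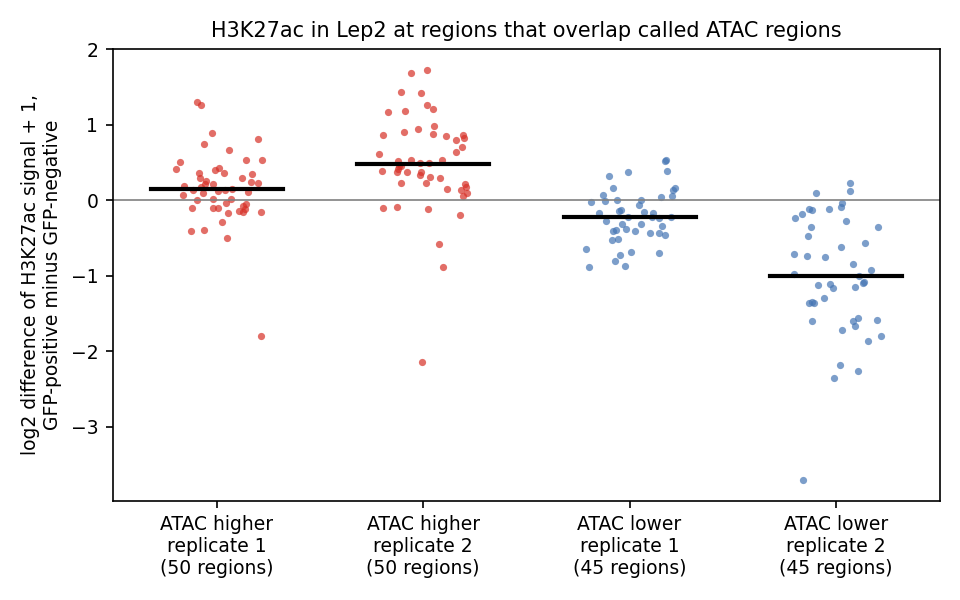
Log2 difference of H3K27ac signal + 1, GFP-positive minus GFP-negative, in replicates 1 and 2 of Lep2, at the 50 H3K27ac regions that overlap higher and the 45 that overlap lower ATAC calls. Each point is a region and the bar its median; medians were 0.14 and 0.47 at higher and -0.22 and -1.0 at lower ATAC regions.

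Single loci show both assays together. The H3K27ac region chr10:82257219-82260084, over the higher ATAC region at chr10:82257653, had 100.7 and 169.4 in GFP-positive nuclei, against 41.4 and 94.9 in GFP-negative nuclei (1.05 ± 0.20, limma adjusted p 0.00725 with the set term). The H3K27ac region chr17:5470100-5472506, over a higher ATAC region with a difference of 1.65, had 90.4 and 122.1 in GFP-positive nuclei, against 36.1 and 50.3 in GFP-negative nuclei, or 1.30 and 1.26 in the 2 replicates. On the lower side, chr1:74334899-74351573 had 324.9 and 271.6 in GFP-positive nuclei, against 593.9 and 821.2 in GFP-negative nuclei, over an ATAC region with a difference of -1.21. At these 3 loci the mark separated the sorts in each replicate. They were chosen after their values were seen, as loci called in both assays.

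The locus chr7:17643815-17645357 was named for H3K27ac by replicate 2, with 21.1 and 8.5 in GFP-positive nuclei, against 34.8 and 122.9 in GFP-negative nuclei. The ATAC region that overlaps it, chr7:17643436-17644087, had 7.0 and 8.1 in GFP-positive nuclei, against 29.3 and 50.8 in GFP-negative nuclei (-2.22 ± 0.51, limma adjusted p 0.0487). Both assays were lower in GFP-positive nuclei there, by more in replicate 2. Read the other way, the ATAC regions within H3K27ac calls differed little between the sorts: 918 regions within higher calls had a median ATAC difference of 0.15 and 1150 within lower calls one of -0.16, against 0.01 over all ATAC regions within tested H3K27ac regions. Of these 918 and 1150, 66.4% and 63.7% had the direction of the mark.

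The authors' deposited tables hold their own test of the sort in Lep2. In the authors' deposited table, 8 ATAC regions had an FDR under 0.05, 5 higher and 3 lower in GFP-positive nuclei. Of these 8, 7 (87.5%) were among the 114 called here and make up 6.14% of them. The eighth, chrX:103382017-103382671, had 68.5 and 76.7 in GFP-positive nuclei, against 123.9 and 176.1 in GFP-negative nuclei, and missed the threshold here (-1.02 ± 0.26, limma adjusted p 0.0881). In the authors' deposited table for H3K27ac, 1668 regions had an FDR under 0.05, 498 higher and 1170 lower. Of these, 1638 (98.2%) were called here with the set term and the same sign, 55.2% of the 2965, and 0 without that term. The authors' deposited tables list 0 regions at an FDR under 0.05, in either assay, for the term that combines Lep2 with the sort.

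Chromosome X stood apart from the autosomes in H3K27ac. The median log2 difference of its 1438 tested regions was 0.25 in replicate 1 and 0.31 in replicate 2 of Lep2, and 66.6% and 75.4% of the regions were higher in GFP-positive nuclei. The medians of single autosomes lay between -0.02 and 0.03 in replicate 1 and between -0.03 and 0.08 in replicate 2. The X median was also above 0 in the 6 pairs of Fed, Fast and Lep24, at 0.11 to 0.22 in the Fed and Fast pairs and Lep24 replicate 1 and at 0.25 in Lep24 replicate 2. With the set term 83 X regions (5.77%) were called, 76 higher and 7 lower, so that X held 7.25% of the higher calls and 1.46% of the regions tested. The share of all H3K27ac signal on X was 0.847% and 1.42% in GFP-positive nuclei, against 0.7% and 1.15% in GFP-negative nuclei, lower in the weakly enriched replicate of both sorts.

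The named region chrX:5307338-5308945 had 24.6 and 51.6 in GFP-positive nuclei, against 7.1 and 16.7 in GFP-negative nuclei (1.62 ± 0.33, limma adjusted p 0.0106 with the set term). In open chromatin the median difference of the 547 tested X regions was -0.09 and -0.14 in Lep2. In the other treatments the sign of the ATAC median on X was mixed, from -0.18 in Lep24 replicate 2 to 0.03 in Fed replicate 1 and Lep24 replicate 1. Summed H3K27ac signal on chromosome Y was 12703.3 and 1531.2 in GFP-positive nuclei, against 15993.6 and 2191.4 in GFP-negative nuclei. In both sorts it was higher in replicate 1, the opposite of the share of signal on X. Over the set of 6 weakly enriched libraries it ran from 2855.4 to 17326.3, and over the other H3K27ac libraries from 944.4 to 2287.6. The sex of the mice behind a library is not in the labels used here, and whether it differs between sorts or replicates was not tested.

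**Figure D5:**
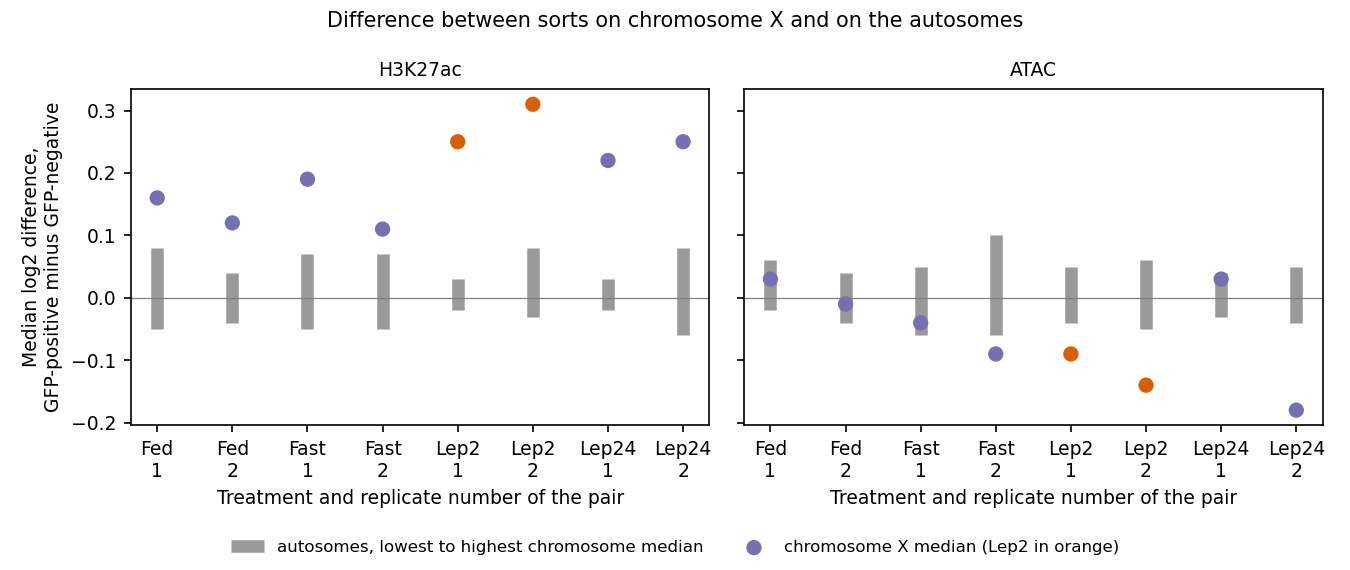
Median log2 difference, GFP-positive minus GFP-negative, over the tested regions of chromosome X (points, Lep2 in orange) and the range of the medians of single autosomes (grey bars), for each same-numbered pair of libraries in a treatment. For H3K27ac all 8 X medians lie above 0 (0.11 to 0.31), and for ATAC they lie on both sides of 0 (-0.18 to 0.03).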

How the data were processed

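Only normalized signal was used. The deposited tables give a signal for every region in each library, in columns labelled norm. The authors head only the column of means as normalized counts. No source used here states the normalization. Values have 1 decimal and rise in uneven steps, so reads could not be recovered and count models were not applied. The authors' deposited comparisons, with their log2 fold changes, p-values and FDR, are quoted only as theirs. Per the submitters' processing notes the build was mm9, and the tools included MACS2, Bowtie 1.2, Bowtie2 2.2.6, DESeq2 1.16.1, HTSeq 0.6.0, STAR 2.5.2b and CASAVA 1.8, with no role for each. The series' 23 RNA samples and its inputs, 16 for ChIP and 4 for ATAC, were not used here.

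Regions with a mean signal of 10 or more over 16 libraries were log-transformed as log2(signal + 1). They were fitted in limma (version 3.58.1, R version 4.3.3, with the data.table package, version 1.17.8) with 8 group means, 8 residual degrees of freedom and a variance prior that follows the signal. P-values are two-sided and adjusted by Benjamini-Hochberg over all regions tested. With 2 libraries against 2, the smallest two-sided exact permutation p is 0.333, so no single region was tested that way. Enrichment of a library was taken as the log2 of its signal per base in the densest over the sparsest regions. Starts were raised by 1 to count from 1, and overlap needed 1 bp. Plots and tables used Python 3.11.15, numpy 2.4.6, pandas 2.3.3 and matplotlib 3.10.9.

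Named regions were, in ATAC, the 12 higher and 12 lower calls with the smallest p and no overlap between sorts. In H3K27ac they were, at a mean signal of 20 or more, the 12 higher and 12 lower with the largest smaller difference. These had the same sign in both replicates and no overlap between sorts. By replicate 2 alone 4 of each direction were taken, of which chr4:58008492-58010957 met neither condition. For the departure from other treatments, 3 regions per assay had the smallest p. Lists of marker genes were not used here, since regions carry no gene names. The comparison, rules and lists were chosen with earlier results of these data known. The fits were tested on simulated data. Alternatives were other pseudocounts, filters, thresholds and normalization, a block, weights, the library set as a term and each library left out.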

Additional observations from a re-analysis of the deposited data

How the results depend on the processing

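Where 1 Lep2 library was left out, the lack of overlap between the sorts fixes the sign of every named region but chr4:58008492-58010957. The named regions and the medians kept their sign in every alternative that gave a value. The balance of H3K27ac calls with the set term did not: it was 771 higher and 79 lower without GFP-negative replicate 2, against 1048 and 1917 with all libraries. The 114 ATAC calls became 66 with no filter, 51 with a pseudocount of 0.1 and 174 with 5, 198 with only the 4 Lep2 libraries in the fit, 7 at an adjusted p of 0.01, 505 with a replicate block, and 0 to 308 with 1 library left out. Omitting Fast GFP-positive replicate 2, chosen after seeing the data, gave 204. The replicate block gave 1621 H3K27ac calls, where the fit without it gave 0. Numbers stand only in titles and make 2 pairs; same-numbered Lep2 libraries deviated together with r of 0.19 in ATAC and 0.564 in H3K27ac, but in Fast the H3K27ac r was 0.011. The set term gave 2965 H3K27ac calls (33 to 5158 with 1 Lep2 library left out, an alternative added after seeing the data) and the 10 better enriched libraries 12593. Departures from the other treatments numbered 0 to 63 in ATAC (0 to 27 against Fast) with 1 library left out, and 5 in H3K27ac (1 against Fast) with the 10 libraries. The 6367 regions past 2-fold in replicate 1, 9774 in replicate 2 and 651 in both became 3004, 6184 and 194 with a pseudocount of 5, 14216, 16193 and 1734 with no filter, 22523, 28479 and 5638 at 1.5-fold, and 547, 2689 and 63 at a signal of 50 or more. At ATAC calls with an adjusted p of 0.01, the replicate 2 H3K27ac medians were 0.85 (1 region) and -1.60 (5 regions). With a pseudocount of 5, the medians of lower ATAC calls were -0.91 in Fed and -0.81 in Fast. With 1 Lep2 library left out, medians of higher calls ran from 0.45 to 1.13 in Fed, 0.71 to 1.18 in Fast and 0.54 to 0.95 in Lep24, and of lower calls from -1.55 to -0.37, -1.28 to -0.34 and -1.20 to -0.38; the smallest of these sets held 1 region. Without GFP-negative replicate 2 there were no calls to average. The causes were not tested. In the fit of the 10 better enriched libraries, each sort of Fed, Lep2 and Lep24 has 1 library. The counts of that fit rest on the spread of the Fast libraries alone, with none measured in Lep2, and are not read as results. Unknown read depth limits what can be said of regions near 0.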
